A study of Mus musculus with 8 samples.

Results

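Mouse genes that were first placed by gene prediction, and that had no name from a known function, carry a provisional symbol of the form Gm and a number. The Gm-numbered genes described here were the non-control probes of the arrays whose gene name had that form, without those on chromosomes X and Y and on chromosome 4 from 40 to 46 Mb of the mm9 build. The rule used names and positions and no measured value. It gave 3277 genes measured by 3688 probes, of 37074 named genes and transcripts measured by 56605 probes. The exclusions removed 161 Gm-numbered genes on chromosomes X and Y and 20 in the chromosome 4 interval. The mice were 4 male B6 mice (C57BL/6J, 4 months old) and 4 male BTBR/R mice (BTBRTF/ArtRbrc), an inbred strain studied as a model of autism, of which replicate 1 was 6 months old and the others 4 months. Total RNA from the whole cerebral cortex together with the striatum of each mouse was hybridized to 1 single-colour array of 60-base probes. The 8 arrays shared 1 slide and 1 scan, with B6 in slide column 1 and BTBR/R in slide column 2, so an effect of the slide column cannot be told apart from strain. Each replicate is a separate mouse, and the p-values measure the spread between mice.

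Gm-numbered genes are a mixed class. Some are long non-coding RNAs, some are pseudogenes, which are copies of working genes made by duplication or by reverse transcription of their mRNA, and some are protein-coding genes of large and recently duplicated families. Such families often differ in copy number and sequence between inbred strains, among them the KRAB zinc finger genes, whose products bind DNA and repress transposable elements, and the alpha-takusan genes, whose proteins were described at neuronal synapses. Transcribed pseudogenes can be hard to tell apart from their parent gene by hybridization, because the RNAs are nearly identical.

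By the reference gene table, 2102 of the 3688 probes belonged to long non-coding RNAs, 571 to protein-coding genes, 125 to transcribed pseudogenes, 54 to other pseudogenes and 37 to other RNAs, and 799 had no gene type there. Most genes (2911) had 1 probe, and the other 366 had up to 4. Since the array was designed, 126 of the genes, with 153 probes, have received a name of their own, such as Gm13152, now Zfp982, and Gm7120, now Tmem267. A Gm-numbered lncRNA, Gm37194, is not among the genes described, because its probe carries a clone name on this array.

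Probes of 8 named genes are shown 5′ to 3′, namely those of the 3 largest called falls and the largest called rise on all 8 arrays and of the largest bounds (1 fall and 3 rises), since the measured differences rest on what these 60 bases bind. The first 4 were lower in BTBR/R mice. Gm3893 (a transcribed pseudogene) lies on an unplaced mm9 sequence, Gm8098 (lncRNA) at chr11:30180419-30180478 on the plus strand, Gm11223 (pseudogene) at chr4:69586229-69586288 on the minus strand and Gm5858 (pseudogene) at chr3:153356693-153356752 on the minus strand.
Gm3893: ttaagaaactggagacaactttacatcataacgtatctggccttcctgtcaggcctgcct
Gm8098: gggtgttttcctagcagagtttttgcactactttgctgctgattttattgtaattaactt
Gm11223: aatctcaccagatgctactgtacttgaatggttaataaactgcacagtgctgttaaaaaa
Gm5858: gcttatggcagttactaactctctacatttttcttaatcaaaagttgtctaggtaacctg

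The next 4 were higher in BTBR/R mice, and all lie on the minus strand of mm9. They are Gm3556 (without a gene type in the reference table) at chr9:22271265-22271324, Gm4131 (a predicted protein-coding gene) at chr14:63082527-63082586, Gm26793 (lncRNA) at chr7:152080553-152080612 and Gm8909 (an MHC class I-like gene) at chr17:36302302-36302361.
Gm3556: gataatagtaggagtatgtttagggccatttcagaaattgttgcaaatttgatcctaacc
Gm4131: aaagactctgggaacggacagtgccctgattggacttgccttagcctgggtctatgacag
Gm26793: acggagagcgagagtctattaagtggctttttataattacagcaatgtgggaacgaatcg
Gm8909: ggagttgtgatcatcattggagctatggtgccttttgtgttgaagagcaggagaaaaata

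Gm-numbered genes were detected far less often than the rest of the array. A probe is called detected here where the scanner software marked its spot as well above background. Of the 3688 probes, 738 (of 675 genes) were detected on all 8 arrays and 1851 (50.2%) on none. Of the 52917 other probes, 52.6% were detected on all 8 arrays and 24.6% on none. RIKEN clone transcripts, another group named without a function, had 31.6% of 4207 probes detected on all 8 arrays, and intergenic non-coding RNA probes 32.1% of 4449. Detection among Gm-numbered genes followed the gene type. It reached 49.6% of probes for transcribed pseudogenes, 48.1% for other pseudogenes and 30.1% for protein-coding genes, but for long non-coding RNAs only 294 of 2102 probes.

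**Figure D1:**
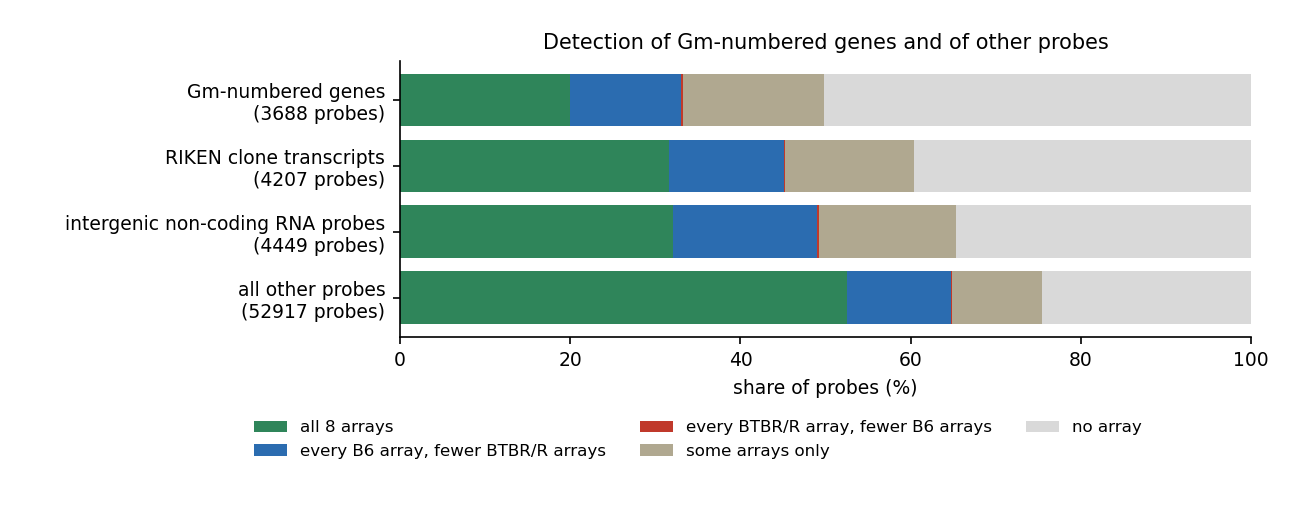
Share of probes (%, horizontal axis) by the arrays on which they were detected, for Gm-numbered genes, RIKEN clone transcripts, intergenic non-coding RNA probes and all other probes, a set that includes the RIKEN and intergenic probes. The Gm-numbered genes have the smallest share detected on all 8 arrays (738 of 3688 probes) and the largest detected on none (50.2%) of the 4 sets drawn.

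The strains also differed in how deep a dim probe could be read. A B6 array detected 1306 to 1431 of the Gm-numbered probes (35.4% to 38.8%), and a BTBR/R array 891 to 1031 (24.2% to 28.0%). The dimmest detected probe of the whole array had a signal of 14.5 to 17.8 in B6, and of 36.1 to 47.1 in BTBR/R. On the scaled log2 signal used below (the log2 processed signal less its 75th percentile on that array), these limits were -5.28 to -4.98 in B6 and -3.97 to -3.55 in BTBR/R. All 37 marker genes examined for striatal and cortical neurons, choroid plexus, oligodendrocytes, microglia and immediate early genes were detected on all 8 arrays. None of the markers of a cell type was called as different, whereas 6 of 8 immediate early genes were called higher in BTBR/R, with a median change of 1.38 (log2). The 5 oligodendrocyte markers had a median change of -0.28, and those of the other cell types between -0.03 and 0.05. The part of these shifts in the results was not tested. In whole tissue, fewer cells of a type and less RNA per cell cannot be told apart.

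A probe was called where limma's adjusted p was below 0.05 and the change, BTBR/R minus B6, was at least 2-fold. Among the 738 Gm-numbered probes detected on all 8 arrays, 11 (1.49%) were called lower in BTBR/R and 12 (1.63%) higher. The same shares over all 28547 probes detected on all 8 arrays were 1.16% and 1.04%, so the shares of the Gm-numbered genes lay near the background. Scaling by spike-in probes, which raised the median change of all such probes from 0.00 to 0.12, gave 5 lower and 16 higher. With normexp background correction, 5 were called lower and 1 higher. The median change of the 738 was -0.04, with the middle of the distribution from -0.21 to 0.10, and that of all probes detected on all 8 arrays was 0.00. At the adjusted p alone, with no fold threshold, 151 of the 738 were lower and 81 higher. Of all 28547 such probes, 3974 (13.9%) were lower and 3700 (13.0%) higher. The share of the 738 lay above this for lower and below it for higher, and the difference was not tested.

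Calls outside this class were more numerous and carried less. All 4 B6 arrays but no BTBR/R array detected 274 Gm-numbered probes, of which 73 (26.6%) were called lower, where the background was 20.9%. A further 207 were detected by all 4 B6 arrays and 1 to 3 BTBR/R arrays, of which 16 (7.73%) were called lower, where the background was 4.12%. In all but 5 of these 89, at least 1 BTBR/R signal lay at or under the lowest detected signal of its array. Set against the higher of that limit and the measured signal, 19 were at least 2-fold lower, 32 were at least 1-fold but not shown to be 2-fold lower, and for 38 no fold can be given. The 5 probes with every BTBR/R signal above its limit, although not all were marked as detected, are among the 19, and their fold is the measured one. The reverse class was small, with 7 probes detected on every BTBR/R array and fewer B6 arrays. Of these, 5 were called higher, where the background was 84.1% of 63 probes.

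Over the whole fit, 113 Gm-numbered probes were called lower (3.06%, background 2.27%) and 1455 higher (39.5%, background 20.2%). Of the 1455 called higher, 1329 were detected on no array. Their class of undetected probes had a median scaled signal of -7.12 in B6 and -5.78 in BTBR/R, both below the limits given above, and the same class of other probes had -7.08 and -5.79. With normexp background correction 14 Gm-numbered probes were called lower and 14 higher. No direction of expression is given below for a probe that was not detected by all 4 arrays of either strain.

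**Figure D2:**
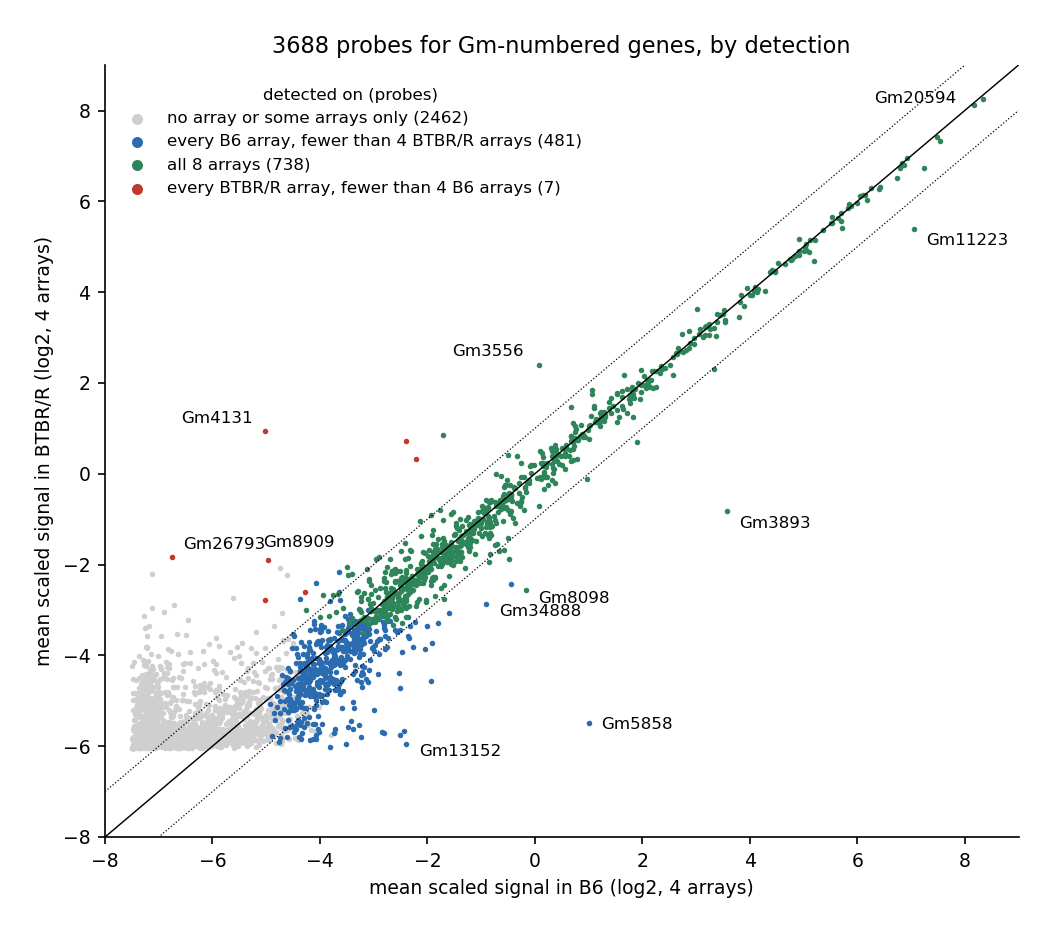
Mean scaled signal (log2) of each of the 3688 probes in B6 (horizontal axis) and BTBR/R (vertical axis), coloured by the arrays on which the probe was detected. The solid line marks equal signal and the dotted lines a 2-fold difference. Most detected probes lie between the dotted lines, and the undetected ones form a block whose lower edge sits higher in BTBR/R than in B6.

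Among probes detected on all 8 arrays, the largest called fall was that of Gm3893. Its scaled signal was 3.53, 3.62, 3.56 and 3.58 in the 4 B6 mice and -0.82, -0.63, -0.99 and -0.87 in the 4 BTBR/R mice. The groups were far apart, and the change of -4.40 ± 0.08 (SE, n = 4 per strain, adjusted p = 1.97e-07) is 21.2-fold. In the reference gene order Gm3893 stands on chromosome 4 between Gm21104 and Gm13304, with Fam205a4 close by. The mm9 position of its probe is on an unplaced sequence, so the rule on chromosome 4 did not remove it. Without it, 10 called falls are left among the Gm-numbered genes detected on all 8 arrays.

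Gm8098, a lncRNA, had -0.26, -0.02, -0.14 and -0.24 in B6 mice and -2.53, -2.72, -2.45 and -2.58 in BTBR/R mice. It was 5.30-fold lower (-2.41 ± 0.08, adjusted p = 3.32e-06). An intergenic probe 3693 bases away on the same strand was also called lower, and it was detected in B6 mice only. In the reference gene order Gm8098 lies near Sptbn1, which encodes a spectrin of the membrane skeleton.

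Gm11223 had the brightest probe of those called lower by 2-fold or more. This pseudogene had 6.99, 7.09, 7.01 and 7.13 in B6 mice and 5.38, 5.38, 5.40 and 5.44 in BTBR/R mice. The BTBR/R arrays spanned less than 0.1 and none came near the B6 range, and the change of -1.65 ± 0.05 (adjusted p = 1.98e-06) is 3.15-fold. Gm11223 lies on chromosome 4 near Cdk5rap2 and Megf9 in the reference order, outside the excluded interval.

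The other named falls were between 2.12-fold and 2.64-fold. They were Gm13154, described with the zinc finger genes, 2 transcribed pseudogenes of chromosome 8 (Gm8096, -1.21 ± 0.06, and Gm6524, -1.09 ± 0.07), Gm10033 of chromosome 8 (-1.09 ± 0.10) and the lncRNA Gm14169 of chromosome 2 (-1.08 ± 0.05). The adjusted p of these 5 lay between 1.12e-05 and 6.58e-05, and the strains did not overlap for any of them. Gm6524, Gm10033 and Gm14169 were near the 2-fold threshold, and scaling by spike-in probes took them to -0.98, -0.98 and -0.97. Normexp correction left Gm14169 at -0.99, Gm10033 at -0.88 and Gm6524 at -0.79.

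The largest called rise on all 8 arrays was that of Gm3556. It had 0.02, 0.14, 0.11 and 0.05 in B6 mice and 2.34, 2.42, 2.41 and 2.43 in BTBR/R mice. The change of 2.32 ± 0.05 is 4.99-fold (adjusted p = 3.05e-07), and it was the only 1 of the 12 rises that was still called with normexp correction.

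The probes of the other 7 named rises had B6 means from -4.27 to -2.14. Gm35082 of chromosome 7 rose by 1.44 ± 0.19 (2.71-fold, adjusted p = 0.000571). Gm15420 of chromosome 17 had -4.28, -4.34, -4.19 and -4.26 in B6 mice and -3.04, -2.94, -2.98 and -3.04 in BTBR/R mice, a rise of 1.27 ± 0.05 (2.41-fold). Its B6 values lay below the signal at which a probe could be detected on a BTBR/R array. With a floor at the highest detection limit, its rise was 0.58.

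Gm38398 of chromosome 9 had -3.52, -3.46, -3.42 and -3.51 in B6 mice and -2.41, -2.13, -2.22 and -2.14 in BTBR/R mice (1.25 ± 0.07, 2.38-fold). An intergenic probe 62 bases away on the same strand rose by nearly as much (1.22 ± 0.07, adjusted p = 2.76e-05). Whether both probes read 1 transcript was not tested. Gm34883 of chromosome 17 rose by 1.10 ± 0.04, Gm31854 of chromosome 18 by 1.28 ± 0.17 and Gm11733 of chromosome 11 by 1.09 ± 0.15. Gm38480 of chromosome 10 was the least certain, with a change of 1.19 ± 0.31 (adjusted p = 0.0185) and BTBR/R values of -2.50, -1.32, -2.87 and -2.13. Without BTBR/R replicate 2 its change was 0.90, below the 2-fold threshold, and without BTBR/R replicate 4 that of Gm11733 was 0.998, just below it. With the floor, the rises of Gm31854 and Gm11733 were both 0.91. Without BTBR/R replicate 1, the older mouse, all 23 calls on all 8 arrays were kept.

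**Figure D3:**
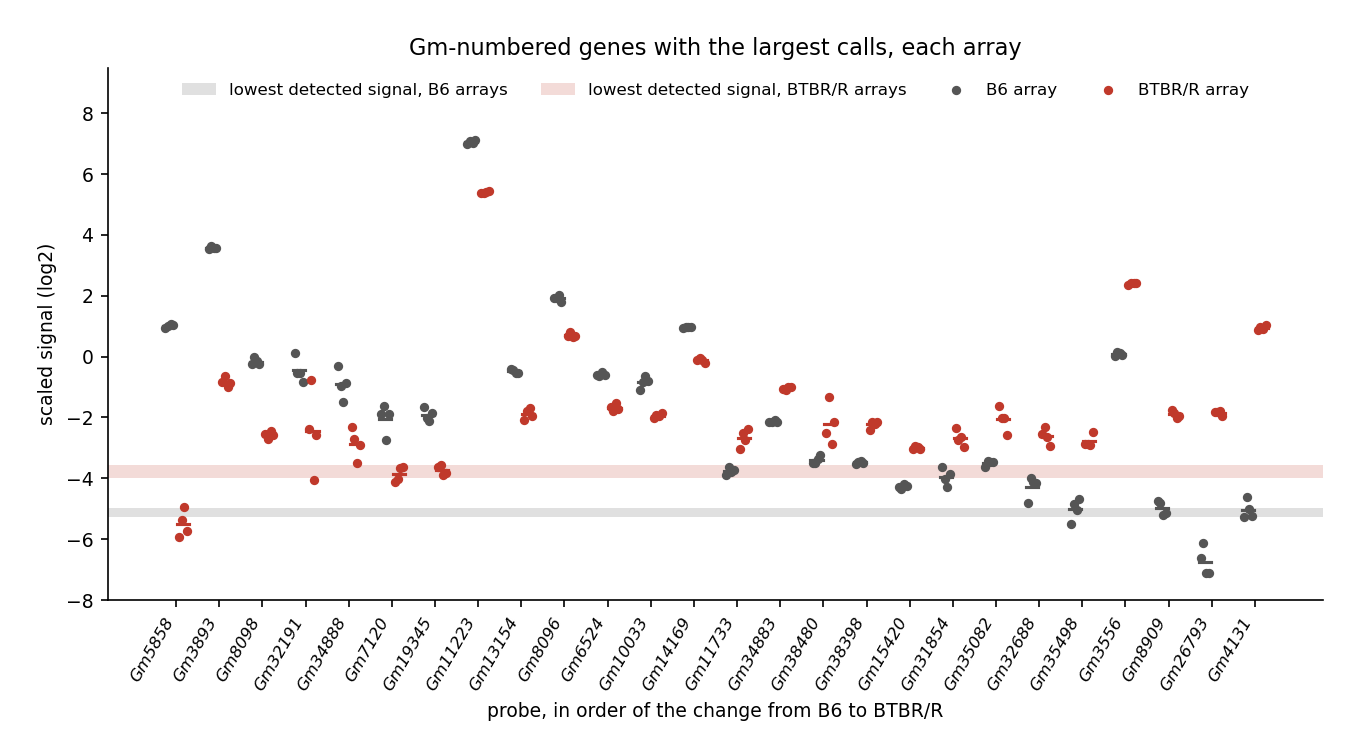
Scaled signal (log2, vertical axis) of each array for the probes with the largest called falls and rises, with B6 in grey, BTBR/R in red and a short line at each mean. The shaded bands span the lowest detected signals of the B6 and the BTBR/R arrays. Gm5858 and Gm3893 fall furthest, and Gm4131 rises from the B6 band to 0.94.

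Gm5858, a pseudogene of chromosome 3, was read in B6 mice only. It had 0.94, 0.99, 1.06 and 1.04 in B6 mice and -5.93, -5.36, -4.95 and -5.73 in BTBR/R mice, where no array detected it. It was at least 26.2-fold lower (adjusted p = 2.35e-06), the largest bound among the Gm-numbered genes that fell. The 4 BTBR/R values lie under the detection limit and have no order.

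The other 4 genes named in this class had bounds or folds from 3.16 to 3.88. Gm34888 of chromosome 9 had -0.30, -0.98, -1.48 and -0.85 in B6 mice and -2.33, -2.71, -3.49 and -2.92 in BTBR/R mice. It was 3.88-fold lower (adjusted p = 0.00185), as measured, since every BTBR/R signal lay above the limit of its array although only 3 were marked as detected. Gm19345, a protein-coding gene of chromosome 7, was at least 3.27-fold lower and was detected on 1. Gm7120 (Tmem267) of chromosome 13 was at least 3.16-fold lower by 1 of its 4 probes, as described below. Gm32191 of chromosome 6 was at least 3.70-fold lower (adjusted p = 0.0414), but its BTBR/R values ran from -4.05 to -0.77, and the call was lost, with an adjusted p of up to 0.0974, when any 1 array other than BTBR/R replicate 2 was left out.

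Of the genes read in BTBR/R mice but not on every B6 array, Gm4131 stood furthest out. It had -5.29, -4.60, -5.00 and -5.22 in B6 mice, where 2 arrays detected it, and 0.87, 0.97, 0.90 and 1.02 in BTBR/R mice. It was at least 59.4-fold higher in BTBR/R (adjusted p = 9.29e-07). Gm26793, a lncRNA that lies beside Fgf3, Fgf4 and Fgf15 in the reference gene order, was detected on no B6 array, with signals of -6.62, -6.13, -7.12 and -7.11 there, and had -1.82, -1.83, -1.77 and -1.95 in BTBR/R mice. It was at least 9.91-fold higher (adjusted p = 1.25e-05).

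Gm35498, a pseudogene of chromosome 1, was at least 4.29-fold higher (adjusted p = 4.38e-05), and Gm32688, a lncRNA of chromosome 10, was 3.19-fold higher as measured (adjusted p = 0.000405), with 3 B6 arrays marked as detected and all 4 B6 signals above the limits. With all values raised to the highest detection limit of the 8 arrays, their changes were 0.79 and 0.98, under 2-fold. The remaining pair of probes in this class belonged to Gm34786, which has no mm9 position. Their changes were 2.53 ± 1.11 and 3.13 ± 1.44, and neither was called (adjusted p = 0.112 and 0.128). Their B6 values ranged from -5.56 to -0.07 and from -6.80 to 0.44, with B6 replicate 3 lowest on both. The third Gm34786 probe was detected on all 8 arrays and showed the same spread, from -4.80 on B6 replicate 3 to 0.41 on B6 replicate 2 (adjusted p = 0.0923). It was the only Gm-numbered probe detected on all 8 arrays with a change of at least 2-fold that was not called. The 3 probes share runs of 34 to 50 bases with each other and are not separate measurements.

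Gm8909 is the member of the MHC class I-like list that changed. MHC class I molecules present peptides to T cells, and the non-classical members near H2-T3 and H2-T10, where Gm8909 lies, vary in number between strains. Gm8909 had -4.74, -4.81, -5.20 and -5.15 in B6 mice and -1.76, -1.86, -2.01 and -1.97 in BTBR/R mice. It was at least 8.29-fold higher in BTBR/R (adjusted p = 7.35e-06), with 2 B6 arrays above background. The H2-T3 probe, 21224 bases away, was missed by part of the BTBR/R arrays and was not called (adjusted p = 0.768). Of 6 listed genes 4 were on the array, with 5 probes. Gm11127 was detected on all 8 arrays and differed by -0.13 ± 0.18 (adjusted p = 0.612). Without BTBR/R replicate 3, at 1.37 the highest of the 8 arrays, its change was -0.32 and passed the adjusted p. The probes of Gm7030 and Gm6034 were not detected on every array of either strain.

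The interferon-inducible GTPase and GBP-like list holds genes whose products attack vacuoles of intracellular microbes, and 7 of its 11 genes were on the array with 10 probes. Gm5431 was the only one called among its probes detected on every array of a strain. It had -2.25, -2.21, -2.21 and -2.39 in B6 mice and -3.57, -3.73, -4.23 and -3.71 in BTBR/R mice, and was at least 2.54-fold lower (adjusted p = 7.12e-05). With normexp correction its change was -0.79 and the call was lost. Gm12250, known as Irgb10, was detected on every B6 array by 1 of its 2 probes, but on 1 BTBR/R array, and with a B6 mean of -4.01 under the BTBR/R limits it has no readable direction.

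Gm4841 of the same list had the brightest probe, with a mean of 6.79 in B6 and 6.73 in BTBR/R (-0.06 ± 0.05, adjusted p = 0.373), while its other probe was detected on no array. The bright probe shared a run of at least 30 bases with 34 other probes of the array, 25 of them on the opposite strand, and those probes changed by -0.16 to 0.12. Its level therefore cannot be assigned to Gm4841 alone. Of the SIRP-like and paired Ig-like receptors, which tune the activation of myeloid cells, 4 of 5 genes were on the array, and none of their 5 probes was detected on every array of a strain.

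The zinc finger genes of distal chromosome 4 held 4 of the called falls, 1 of them among probes detected on all 8 arrays (background 1.16%) and 3 among those detected in B6 mice only (background 20.9%). Of 17 listed genes 7 were on the array, and all 8 of their probes were detected by the 4 arrays of 1 strain or of both. None was called higher, and the changes ran in both directions. Zinc finger proteins of this kind share a short linker between fingers, and the probes of Gm13251 (Zfp992, chr4:145730494-145730553, minus strand) and Gm13212 (chr4:145214238-145214297, plus strand) fall on it, as does part of that of Gm13152 (Zfp982, chr4:146887459-146887518, plus strand). Capitals mark the 17 bases that the first pair shares.
Gm13251: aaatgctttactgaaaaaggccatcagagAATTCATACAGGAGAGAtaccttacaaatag
Gm13212: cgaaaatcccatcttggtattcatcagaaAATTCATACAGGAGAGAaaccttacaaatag
Gm13152: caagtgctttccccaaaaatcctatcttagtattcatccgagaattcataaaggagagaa

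Without gaps, Gm13152 and Gm13212 matched at 41 of 60 bases, yet their values went apart. Gm13152 had -2.24, -2.49, -2.45 and -2.41 in B6 mice and -6.20, -5.79, -5.85 and -5.94 in BTBR/R mice, where no array detected it. It was at least 2.48-fold lower (adjusted p = 1.96e-06). Gm13212 differed by -0.31 ± 0.09, and Gm13251, detected on all 8 arrays, by -0.75 ± 0.11, both below the 2-fold threshold.

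Gm13154, now Zfp985, was 2.64-fold lower by 1 probe. That probe had -0.40, -0.44, -0.54 and -0.55 in B6 mice and -2.08, -1.79, -1.70 and -1.95 in BTBR/R mice (-1.40 ± 0.09, adjusted p = 2.76e-05). Its other probe, which starts at base 146958910 where the first starts at 146959246, was not called and was detected on 3 BTBR/R arrays, and its B6 mean of -4.50 lay under the BTBR/R limits, so its direction cannot be read. Gm13157 (Zfp984) was at least 1.33-fold lower, and for Gm13051 (Zfp987), also called lower, no fold can be given because its B6 mean of -4.39 lay under the BTBR/R limits. With the floor at the highest detection limit, the change of Gm13051 was -0.01.

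Gm13247, now Zfp981, was the only gene of this list to rise on all 8 arrays. Its change of 0.997 ± 0.107 (adjusted p = 0.000196) fell just short of 2-fold. With normexp correction it was 0.53 and with the floor at the highest detection limit 0.88. It passed 2-fold under spike-in scaling (1.11) and without B6 replicate 3 (1.07), B6 replicate 4 (1.02) or BTBR/R replicate 3 (1.04), and would then be called. The probe shared 58 bases with a probe of Rex2, which rose by 1.07 ± 0.07, and 55 and 49 bases with 2 probes of Zfp600, which rose by 1.14 ± 0.15 and 1.02 ± 0.12. All 3 were called higher. These are zinc finger genes of the same family, and the 4 probes cannot be taken as separate measurements.

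Of 42 listed zinc finger genes of distal chromosome 2, 16 were on the array with 21 probes, and all 21 were detected on all 8 arrays. None was called, and none passed the adjusted p alone. The changes ran from -0.22 to 0.51 with a median of 0.00, the same as over all probes detected on all 8 arrays. At an adjusted p alone, the intensity trend option gave 1 lower, spike-in scaling 1 higher and leaving out BTBR/R replicate 1, the older mouse, 2 lower. The largest difference, 0.51 ± 0.53 for 1 probe of Gm14410, came with the largest SE, and its other probe differed by 0.01 ± 0.06. Without BTBR/R replicate 3 the highest change of the 21 was 0.10. Bright members such as Gm14326 (3.81 in B6, 3.77 in BTBR/R) and Gm14295 (3.34 and 3.22) differed by -0.03 ± 0.05 and -0.12 ± 0.05. The Gm14326 probe shared runs of 32 and 33 bases with other probes. A probe of Gm14322 and that of Gm14124, both listed, shared 30 bases. The 21 probes therefore cannot all be taken as separate measurements.

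**Figure D4:**
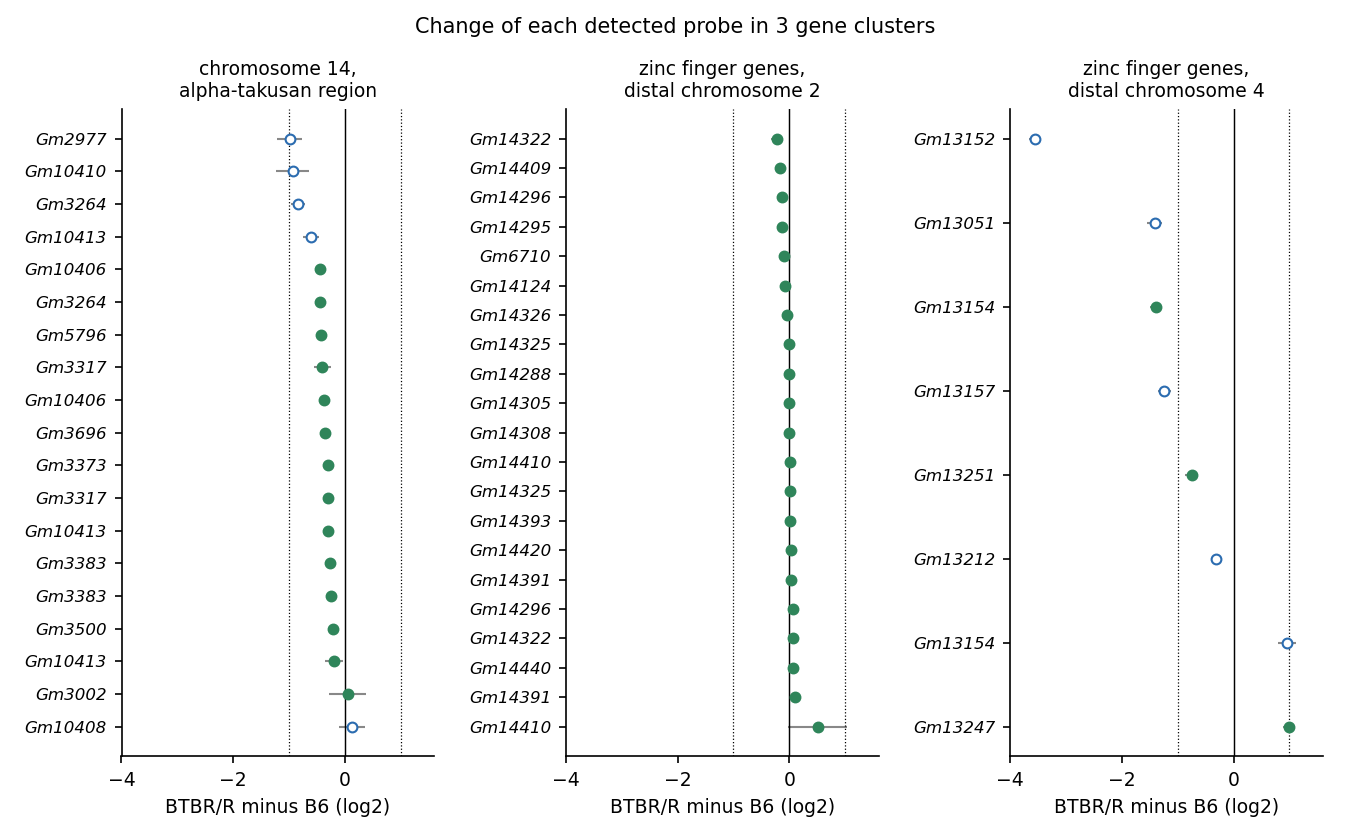
Change from B6 to BTBR/R (log2, horizontal axis, bars are SE) of each probe that all 4 arrays of a strain detected, for the alpha-takusan region of chromosome 14, the zinc finger genes of distal chromosome 2 and those of distal chromosome 4. Filled green points were detected on all 8 arrays and open blue ones on fewer, and dotted lines mark 2-fold. The chromosome 2 probes lie close to 0, most chromosome 14 probes lie a little below it, and the chromosome 4 probes run from -3.55 to 0.997. Open points include signals under the detection limit, so their distance from 0 is not a measured fold.

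In the alpha-takusan region of chromosome 14 (3 to 8 Mb of mm9), 16 genes were measured by 23 probes, of which 14 (10 genes) were detected on all 8 arrays. None of these 14 was called, but 13 were below 0, with a median change of -0.30 and a range from -0.45 to 0.05. At the adjusted p alone, a count chosen after the values were seen, 11 of 14 were lower and none higher, where 13.9% of all probes detected on all 8 arrays were lower. Under spike-in scaling the median was -0.19, against 0.12 for all probes detected on all 8 arrays, and 5 of 14 passed.

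The lower signal was shared by bright and dim members of the region. Gm10406 differed by -0.38 ± 0.05 and -0.45 ± 0.09 by its 2 probes, Gm3264 by -0.45 ± 0.06, Gm5796 by -0.42 ± 0.05 and Gm3373 by -0.30 ± 0.05. Gm3383 and Gm10413, the brightest with B6 means of 2.15 and 2.19, differed by -0.25 ± 0.05 and -0.30 ± 0.06. Gm3002 was the exception, with 0.05 ± 0.34, and that sign came from 1 array. Its BTBR/R values were -2.45, -2.20, -0.84 and -2.22, beside -2.02, -1.84, -1.97 and -2.08 in B6 mice. Without BTBR/R replicate 3, all 14 probes were below 0, the highest at -0.19, and 12 of 14 were lower at the adjusted p. No 2 of the 14 probes shared a run of more than 9 bases, as for Gm10406 (chr14:7858420-7858479, minus strand) and Gm10413 (chr14:3501838-3501897, plus strand, the dimmer of its probes on all 8 arrays, -0.20 ± 0.16), shown as examples. This compares the probes only with each other. Whether each also binds RNA of other genes of the family was not tested, so the 14 cannot be taken as readings of single genes. Outside the 14, a probe of Gm3264 that not every BTBR/R array detected shared 41 bases with a probe of Gm3317, 1 of the 14.
Gm10406: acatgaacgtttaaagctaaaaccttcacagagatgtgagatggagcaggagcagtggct
Gm10413: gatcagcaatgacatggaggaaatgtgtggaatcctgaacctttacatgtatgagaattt

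None of the 5 genes with the brightest probes was called, and 2 of them were lower at the adjusted p alone. Gm20594 had 8.38, 8.35, 8.40 and 8.21 in B6 mice and 8.31, 8.37, 8.24 and 8.13 in BTBR/R mice, which overlap (-0.07 ± 0.07, adjusted p = 0.453). The pseudogene Gm5523 (-0.05 ± 0.04) and the lncRNA Gm20751 (-0.05 ± 0.07) did not pass the test either. Gm20753 was lower by 0.52 on the log2 scale (adjusted p = 0.000738), under 2-fold. Gm10856 was lower by 0.21 (adjusted p = 0.0423), a pass that was lost, with an adjusted p of up to 0.104, without any 1 B6 array or without BTBR/R replicate 3 or 4, and under spike-in scaling, where its change was -0.10.

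Of these 5 brightest probes, 2 shared runs of at least 30 bases with other genes' probes, whereas those of Gm20594, Gm20751 and Gm10856 shared none. The Gm5523 probe had 34 bases in common with a probe of Gapdh, the glycolytic enzyme, which measured 8.20 in B6 and 8.21 in BTBR/R beside 8.17 and 8.11 for Gm5523. The Gm20753 probe shared runs with 10 other probes, among them 52 bases with a probe of Dcc, a receptor for netrin, which was lower by 0.26. In all, 99 Gm-numbered probes shared a run of at least 30 bases with another probe. Where both were detected on all 8 arrays on the same strand (60 pairs), their changes differed by a median of 0.05 and at most 0.39. Several pairs had a probe in common, and pairs without a shared run were not set beside them. Over all probes detected on all 8 arrays, the middle of the changes ran from -0.12 to 0.12. No called probe detected on every array of a strain was among the 99. Only probes of this array were compared with each other. Whether a probe matches the RNA of another gene where no probe lies was not examined, also for the called pseudogenes.

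Gm6109 shows how close such pairs can be. Its probe (chr13:94218656-94218715, plus strand) had 49 bases, in capitals, in common with a probe of Rpl30, a protein of the large ribosomal subunit.
Gm6109: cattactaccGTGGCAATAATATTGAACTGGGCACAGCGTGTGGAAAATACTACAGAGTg

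Gm6109 differed by -0.06 ± 0.04 and Rpl30 by -0.05 ± 0.04. Likewise, Gm6444 shared 58 bases with Ndufb11, a subunit of respiratory complex I (0.00 ± 0.05 and 0.02 ± 0.04), and Gm15421 shared 54 with Rpl22l1 (-0.01 ± 0.05 and 0.02 ± 0.05). For each of these 3 pairs the signal cannot be assigned to 1 of the 2 genes.

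Most genes with several probes gave similar changes by each. For 55 genes with at least 2 probes detected on all 8 arrays, the changes differed by a median of 0.11, and for 48 of them by less than 0.5. For 4 genes the difference was over 1, and in each of them the probes went in opposite directions. Gm26843 had probes at 0.65 ± 0.09 and -0.75 ± 0.09, Gm30948 at 0.69 ± 0.10 and -0.58 ± 0.05, and Gm2824 at -0.44 ± 0.11, 0.34 ± 0.12 and 0.57 ± 0.11, with a further probe, detected by all 4 B6 arrays and 2 BTBR/R arrays, that was at least 2.54-fold lower.

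Gm7120, now Tmem267, was the widest. On all 8 arrays 1 probe was at -0.64 ± 0.22 (adjusted p = 0.0515) and another at 0.92 ± 0.22 (adjusted p = 0.0137), which was called under spike-in scaling (1.03), without B6 replicate 1 (1.01) and without B6 replicate 2 (1.01). The probe described above was at least 3.16-fold lower, and with normexp correction its change was -0.95 and the call was lost. B6 replicate 3 was lowest of its strain on each of these probes, at -1.81, -1.21 and -2.73, and without it the changes of the first pair were -0.88 and 0.68. The neighbouring 4833420G17Rik was called lower on the same strand by 2 probes (-1.73 ± 0.06 and -1.31 ± 0.05).

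Gm4876 of chromosome 6 was the only Gm-numbered gene with detected probes called in both directions. By 1 probe it had -2.82, -2.98, -2.93 and -2.89 in B6 mice and -1.85, -1.67, -1.93 and -1.85 in BTBR/R mice, a rise of 1.08 ± 0.07 (adjusted p = 2.76e-05). By the other, which was detected in B6 mice only, it was called lower (adjusted p = 0.00379), but the bound is at least 1.49-fold, so a fall of 2-fold is not shown. Gm10033 had, beside the probe given above, 2 probes that no BTBR/R array detected. By 1 of them it was at least 2.29-fold lower, and the other was not called.

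**Figure D5:**
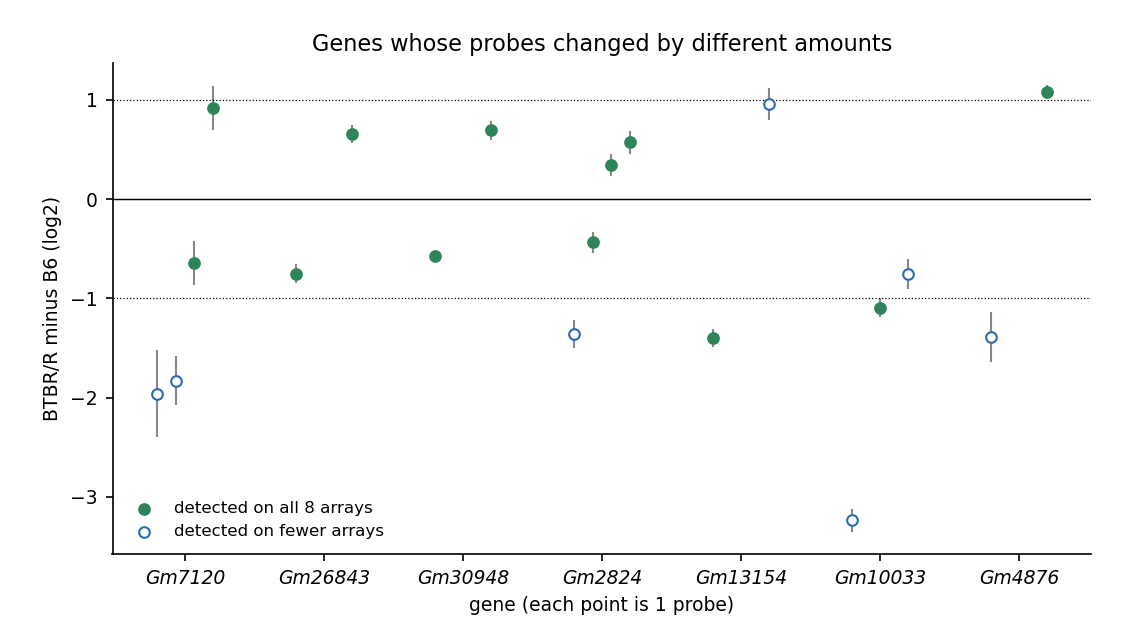
Change from B6 to BTBR/R (log2, vertical axis, bars are SE) of every probe of 7 Gm-numbered genes, with filled points detected on all 8 arrays and open points on fewer, and dotted lines at 2-fold. Probes of Gm7120, Gm26843, Gm30948, Gm2824, Gm13154 and Gm4876 lie on both sides of 0, and the 3 probes of Gm10033 lie below it. Open points include signals under the detection limit, so their distance from 0 is not a measured fold.

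Gm-numbered probes that were called and were detected on every array of a strain came from all 19 autosomes. They numbered 100 lower and 17 higher of 3688, where 2.12% of all probes were lower and 0.645% higher by the same rule. Of the 100, 89 were detected on every B6 array and on fewer than 4 BTBR/R arrays. For 19 of these 89 a fall of at least 2-fold was shown, and for 38 no fold can be given. Both directions together made 3.17% of the Gm-numbered probes and 2.77% of all probes. Chromosome 4 held 15 of them, 6.67% of its Gm-numbered probes beside 4.35% of all its probes, and chromosome 5 held 2, 0.791% beside 2.58%. Whether the Gm-numbered genes differ from other probes by chromosome was not tested.

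By gene type, 4 of 294 lncRNA probes detected on all 8 arrays were called lower and 7 higher. For transcribed pseudogenes these counts were 3 and 0 of 62, and for protein-coding genes 2 and 1 of 172, beside the 1.16% and 1.04% over all probes given above, and the types were not tested against each other. Of the 153 probes whose genes have since been named, 43 (28.1%) were detected on all 8 arrays. By the rule of detection on every array of a strain, 8 of the 153 were called lower and 0 higher, beside 100 and 17 of all 3688. Over all probes, 2.12% were lower and 0.645% higher by this rule. Of the 8 called, only the Gm13154 probe was detected on all 8 arrays. The others passed the rule through the B6 arrays alone, and for some of them no fold can be given.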

How the data were processed

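RNA of 8 mice was measured, 1 mouse per array, and samples were grouped by the strain in their titles. The authors deposited Feature Extraction 10.7.3.1 intensities of each spot (processed signal, background subtracted and spatially detrended with low values replaced, mean signal and local background), with flags for controls, outliers and spots well above background. The authors also deposited log2 values, which, less 1 offset for each array, matched the log2 processed signal within 0.01 for 99.972% of probes or more.

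Control spots and 36 to 52 outlier spots per array were left out, spots of a probe were averaged, and the log2 processed signal, less its 75th percentile on that array, was compared with limma 3.58.1 (lmFit, eBayes, R 4.3.3) over all 56605 probes with Benjamini-Hochberg adjustment. Other steps used Python 3.11.15, pandas 2.3.3 and matplotlib 3.10.9. The fit was first tested on simulated data. Within a strain, arrays correlated at 0.994 to 0.998. No probe was saturated, and the number of arrays limits the precision.

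Detection was the software's flag. For a probe missed on an array of the dimmer strain, the fold is a lower bound, from the mean of the brighter strain against the mean, per dimmer array, of the higher of its detection limit and the probe's signal. Where every signal of the dimmer strain lay above its limit, this is the measured fold and is given as such.

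The members and lists were chosen with earlier results of these data known. Genes were named by rule, which gave 44 probes of 38 genes. The rule took the 8 largest called falls and rises on all 8 arrays, the 5 largest bounds in each direction, the 5 brightest genes, called and detected list members, and the 4 genes whose probes differed most. Neighbours, shared runs, Gm34786 and Gm4876 were chosen after their values were seen. The alternatives were normexp (offset 50), quantile normalization, 3 other scalings, the authors' log2 values, the methods' t-test, limma with the trend or the robust option, a filter or a floor for dim probes, a replicate block and leaving out each array. Names, mm9 positions and probe sequences are the array's own. A RefSeq accession came with 2909 probes, and 1589 of these accessions were in the reference table (GRCm38.p6), which gave gene types by accession or symbol for 2889 probes, newer names and gene order. Gm26917 was not analysed here.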

Additional observations from a re-analysis of the deposited data

Results flagged for a closer look

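Among 44 named probes, each in 2 strains of 4 arrays, 6 of 88 groups had 1 array far from the other 3, and chance flags about 1 in 20 groups. Gm7120 was flagged by 2 probes on the same array, with B6 replicate 3 at -1.81 beside -0.94 to -0.78, and at -1.21 beside -0.34 to -0.22. Gm2824 was flagged on replicate 4 of both strains, with B6 replicate 4 at -0.37 beside -0.75 to -0.69 on 1 probe, and BTBR/R replicate 4 at -0.36 beside -0.65 to -0.63 on another. Gm20751 stood at 7.38 on B6 replicate 4 beside 7.499 to 7.518, and Gm35498 at -2.49 on BTBR/R replicate 4 beside -2.89 to -2.88.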

How the results depend on the processing

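The counts of calls on all 8 arrays (11 lower and 12 higher) moved with normexp correction, which gave 5 and 1, and the count of falls moved with spike-in scaling, which gave 5 beside 16 rises. The 73 falls detected in B6 mice only became 5 with normexp and 7 with a floor at the highest detection limit. Over the whole fit, the 113 falls became 14 with normexp and 28 with the floor. The 1455 rises became 14 with normexp, 12 with the floor, 17 over probes detected on every array of a strain and 38 with quantile normalization. The 11 alpha-takusan probes lower at the adjusted p, a result added after the data were seen, became 5 with spike-in scaling and 9 with the replicate block. Leaving out each array in turn gave 10 to 11 falls and 11 to 14 rises on all 8 arrays, 64 to 74 falls detected in B6 mice only, 100 to 114 falls and 1371 to 1491 rises over the whole fit, and 9 to 12 alpha-takusan probes. The cause of these moves was not tested. Of the 23 calls on all 8 arrays, 23 were kept under quantile normalization, the authors' log2 values, the methods' t-test, the trend and robust options and the replicate block, 22 with scaling by the array median, 20 with the floor, 17 with spike-in scaling and 6 with normexp. Among 44 named probes no change reversed under any alternative, and the call of Gm32191 was also lost with quantile normalization, the floor, the methods' t-test and the block (adjusted p = 0.0661). Same-numbered arrays did not pair (correlations of 0.00, -0.07, -0.04 and 0.16), and the replicate block gave 11 and 12 calls on all 8 arrays, 68 falls detected in B6 mice only, and 102 falls and 1352 rises over the whole fit. Detection limits on the BTBR/R arrays lay above those on the B6 arrays, and their part in these moves was not tested.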
